A study of Mus musculus with 9 samples.

Results

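Regulatory T cells (Tregs) of wild-type mice were compared between cells with high and cells with low ST2, using 6 of the 9 samples of the series. Il1rl1 encodes ST2, through which cells sense the cytokine interleukin-33. The samples were chosen by their genotype label: 3 samples of wild-type ST2-high Tregs and 3 of wild-type ST2-low Tregs, all from spleen, each measured by RNA sequencing as counts per gene. The other 3 samples, Tregs of the genotype ST2KO, entered the fit and supplied part of the estimate of spread but no comparison here. The labels give no strain, age, treatment, injury or sorting gates, and do not say whether the samples of a group came from different animals. The spread behind the p-values is therefore that of these 6 libraries with the ST2KO ones, and it may be technical.

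Tregs are the CD4 T cells, defined by the transcription factor Foxp3, that restrain immune responses. They exist in a resting, recirculating form that homes to lymphoid organs and in activated effector forms that enter tissues, and ST2 is known as a receptor of the effector form. Interleukin-33 is released by damaged stromal and epithelial cells. It binds ST2 paired with the shared chain Il1rap, and the signal passes through Myd88 and the Irak kinases to NF-kB and the p38 and JNK kinases. Tregs that carry ST2 are known for amphiregulin and for roles in tissue repair.

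The 6 libraries held between 16223242 and 29320699 counts, and 12.1% to 16.7% of them fell on the ribosomal RNA precursor Rn45s. The first principal component separated ST2-high from ST2-low and carried 51.7% of the variance. ST2-high replicate 3 stood apart from replicates 1 and 2 of its group: its chi-square per gene against them was 16.5 and 19.9, where other pairs of the series reached at most 8.22. Much of that gap lay in the single row of Rn45s: without it the values were 7.48 and 8.58 against at most 5.47. Its Rn45s share was 16.7% against 12.98% and 12.1%, and its second component was -24.9 against 13.3 and 14.3. In CPM, counts scaled to a common library size, Treg markers were present in all 6 samples: Foxp3 measured 445, 462 and 478 CPM in ST2-low and 549.8, 532 and 622 CPM in ST2-high, Cd4 429, 419.9 and 418 CPM in ST2-low and 438, 433 and 451 CPM in ST2-high and Cd3e 356, 346 and 342 CPM in ST2-low and 356, 364 and 332 CPM in ST2-high. Markers of other spleen cells were also present. The B cell list summed to 405 to 591 CPM in ST2-low and 481 to 593 CPM in ST2-high, and of its 18 tested members 1 was called higher (0 without ST2-low replicate 2 or ST2-high replicate 1 or ST2-high replicate 2) and 0 lower (edgeR; 0 at an unadjusted p under 0.05, 0 by DESeq2 and 0 by limma-voom; 2 without ST2-low replicate 2). The higher one was Cd79b (adjusted p = 0.0177 with all samples; 0.114 without ST2-high replicate 1, 0.0727 without ST2-high replicate 2 and 0.152 without ST2-low replicate 2). The myeloid list summed to 250 to 297 CPM in ST2-low and 230 to 237 CPM in ST2-high, with 8 of 23 tested members lower (5 without ST2-low replicate 1 and 3 without ST2-low replicate 3 and 4 without ST2-high replicate 1) and 1, Itgam, higher. Among all tested genes 10.8% were lower and 15.3% higher. Plasma cell markers summed to 292.7 to 347.8 CPM in ST2-low and 263.5 to 316.3 CPM in ST2-high, with 1 of 7 tested lower. NK markers summed to 48.59 to 53.23 and 40 to 43.84 CPM (1 of 12 lower). Erythroid and platelet markers summed to 46.85 to 55.78 and 35.89 to 41.99 CPM (2 of 8 lower), and neutrophil markers to 13.52 to 48.16 and 16.04 to 26.37 CPM (0 of 9 called). The last 3 counts changed without some single samples, and no member was called higher. The innate lymphoid cytokines Il13 and Il5 and the mast cell and basophil genes Cpa3 and Mcpt8 were below the filter on low counts, at means of 0.0184 to 0.401 CPM between Il5 and Cpa3 in ST2-low. These means describe ST2-low only, and a contribution of such cells to the ST2-high samples was not tested. In the list of innate lymphoid, mast cell and basophil markers 4 of the 8 tested members were higher, Klrg1, Il17rb, Rora and Gata3. Effector Tregs also express these genes, so their rise does not tell these cell types apart. In such bulk samples fewer cells of a type and less RNA per cell cannot be told apart, and the part of these markers in the results was not tested.

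Of 23393 gene rows used, 12219 passed the filter on low counts and were tested by edgeR's quasi-likelihood method; all p-values were adjusted over these genes after Benjamini and Hochberg. At an adjusted p under 0.05, 26.1% of tested genes were called: 1872 genes (15.3%) were higher in ST2-high and 1317 (10.8%) lower. Most differences were small. The median fold was 1.39 among genes called higher and 1.22 among genes called lower. A difference of 2-fold or more was found for 386 higher genes (3.16%) and 45 lower genes (0.368%). The 3 ST2-high samples did not overlap the 3 ST2-low samples in 1795 of the higher genes and 1235 of the lower ones. A small adjusted p favours such separation, and its share over all tested genes was not counted, so these numbers are a description. Most genes named below were chosen by adjusted p or by fold, so any separation of their groups is a description as well. Large rises outnumbered large falls at every level, and large falls were found only in genes with a mean under 20 CPM. Of the 45 lower genes, 18 had a mean under 1 CPM, 23 between 1 and 5 CPM and 4 between 5 and 20 CPM. The 386 higher genes reached further up, with 113 between 5 and 20 CPM, 61 between 20 and 100 CPM and 17 at 100 CPM or more.

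**Figure D1:**
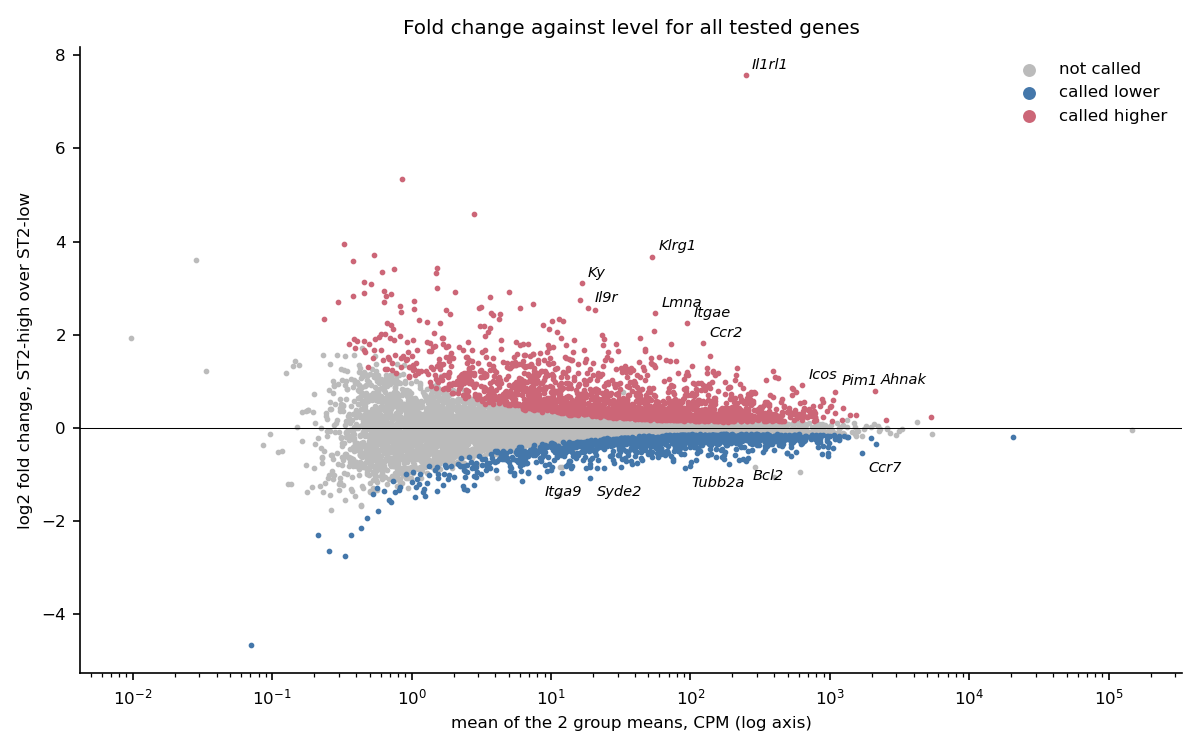
Log2 fold change of ST2-high over ST2-low (vertical axis) against the mean of both group means in CPM (horizontal, log axis) for each of the 12219 tested genes, with genes called higher in red, lower in blue and not called in grey. Il1rl1 lies alone at the top, and the 386 genes called higher by 2-fold or more outnumber the 45 called lower at every level.

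Il1rl1, on which the labels divide the cells, measured 2.16, 3.59 and 2.11 CPM in ST2-low and 516, 421 and 547 CPM in ST2-high. The level of the transcript thus followed the labelled groups in all 6 samples, with a fitted difference of 7.57 ± 0.27 on the log2 scale (SE), given as a description because the sort used this receptor. The ST2KO samples held 57.7, 61.4 and 83.6 CPM of it. A count for the whole gene hides which exons were read, and the knockout label cannot be judged from it. RefSeq (GRCm38.p6) lists more than 1 start for Il1rl1, and the 250 bases before and 30 bases from each of the first 2 starts are shown for the gene that defines the groups. Capitals mark the motif AGATAA or its reverse complement TTATCT, the core bound by GATA factors, whose member Gata3 is described further on. The upstream window is chr1:40429320-40429599 on the plus strand and the next is chr1:40439379-40439658 on the plus strand.
Il1rl1 start 1: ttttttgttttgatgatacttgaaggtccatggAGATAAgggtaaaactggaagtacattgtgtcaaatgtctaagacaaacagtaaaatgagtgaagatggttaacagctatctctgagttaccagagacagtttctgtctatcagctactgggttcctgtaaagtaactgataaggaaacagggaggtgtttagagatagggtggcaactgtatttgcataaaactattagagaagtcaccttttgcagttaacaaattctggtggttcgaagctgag
Il1rl1 start 2: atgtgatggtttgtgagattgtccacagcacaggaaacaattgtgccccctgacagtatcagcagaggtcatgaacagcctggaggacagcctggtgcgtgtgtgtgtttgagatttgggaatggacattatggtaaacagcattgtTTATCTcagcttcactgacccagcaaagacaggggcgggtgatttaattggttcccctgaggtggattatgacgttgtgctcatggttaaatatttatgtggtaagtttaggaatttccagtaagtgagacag
Each window held 1 match, 217 and 103 bases before its start. The motif is short and was found in 6.55% of the 9073 promoter windows of tested genes, so a match is no more than a description.

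The genes next to Il1rl1 in the interleukin-1 receptor cluster did not all behave alike. Both chains of the interleukin-18 receptor were higher. Il18r1, the binding chain, measured 34.6, 39.1 and 32.9 CPM in ST2-low and 94.3, 87.4 and 111 CPM in ST2-high (2.74-fold, adjusted p = 4.77e-13), and Il18rap, the accessory chain, 10.3, 9.82 and 7.79 CPM in ST2-low and 37.2, 29.6 and 44.04 CPM in ST2-high (3.98-fold, adjusted p = 3.23e-12). Il1r2, a decoy receptor for interleukin-1, was 1.69-fold higher (20.7, 22.3 and 21.4 CPM in ST2-high against 11.9, 13.5 and 12.7 CPM in ST2-low, adjusted p = 0.000112). Il1r1 and Il1rl2, which lie in the same cluster, had levels near 1 CPM that overlapped between the groups (adjusted p = 0.958 and 0.337).

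Of the 24 tested genes of interleukin-33 reception and signalling, 7 were called higher, Il1rl1 of the sort included, and 3 lower, against 15.3% and 10.8% of all tested genes. The numbers are small and moved with single samples: the lower count was 1 without ST2-low replicate 1 or ST2-low replicate 2 or ST2-high replicate 2. Il1rap, the partner chain of ST2, showed 25.1 ± 1.28 CPM in ST2-high against 25.9 ± 1.56 CPM in ST2-low (mean ± SD, n = 3; adjusted p = 0.808), and Myd88, the first adaptor, 42.6 ± 1.69 CPM in ST2-high against 41.2 ± 1.903 CPM in ST2-low (adjusted p = 0.663). Neither the partner chain nor the adaptor was called. Il33 itself was at or near 0 in both groups. Further down the pathway Map2k3, a kinase that activates p38, was 2.07-fold higher: it measured 61.5, 55.6 and 57.3 CPM in ST2-low and 126, 117 and 119 CPM in ST2-high (adjusted p = 5.9e-14). Mapk8, which encodes the kinase JNK1, fell 1.27-fold (57.99 ± 2.36 CPM in ST2-high against 73.8 ± 2.03 CPM in ST2-low, adjusted p = 5.47e-05).

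Among called genes whose higher group averaged 10 CPM or more, the largest rises after Il1rl1 were in Klrg1, Ky, Nhsl2, Rhoc, Frmd5, Il9r, Ccr3, Lmna, Zbtb46, Sh3bp4, Gcnt1, Itgae, Hlf, Prox1 and S100a4. Several of them passed that level only in ST2-high, so the ranking is a description. It admitted only genes whose groups did not overlap, so their separation was set by the choice. Klrg1, an inhibitory receptor of terminally differentiated lymphocytes, measured 8.48, 6.95 and 7.64 CPM in ST2-low and 109, 82.5 and 103 CPM in ST2-high (12.8-fold, adjusted p = 4.35e-06). Rhoc, a small GTPase of the actin cytoskeleton, measured 2.22, 1.93 and 1.96 CPM in ST2-low and 14.8, 11.02 and 12.9 CPM in ST2-high (6.35-fold, adjusted p = 6.98e-13). Gcnt1, a glycosyltransferase that builds core 2 O-glycans on selectin ligands, showed 2.97, 4.74 and 2.66 CPM in ST2-low and 15.1, 17.1 and 18.6 CPM in ST2-high (4.89-fold, adjusted p = 6.66e-12). In each of them the lowest ST2-high sample was several times the highest ST2-low sample. Prox1, a homeobox transcription factor best known from lymphatic endothelium, rose 4.37-fold (16.04, 16.4 and 14.9 CPM in ST2-high against 3.19, 4.303 and 3.37 CPM in ST2-low, adjusted p = 3.96e-12), and Hlf, a factor of the PAR bZIP family known from blood stem cells, 4.599-fold (11.96, 15.4 and 15.6 CPM in ST2-high against 2.76, 4.03 and 2.51 CPM in ST2-low, adjusted p = 9.1e-11). Ky and Frmd5 were the least even: Ky measured 30.97, 20.1 and 38.1 CPM in ST2-high against 2.97, 4.14 and 3.22 CPM in ST2-low and Frmd5 11.2, 6.204 and 13.2 CPM in ST2-high against 1.19, 2.98 and 1.005 CPM in ST2-low. In both, ST2-high replicate 2 was the lowest of its group.

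The largest falls by the same rule, which needs 10 CPM in ST2-low alone, were between 1.75-fold and 2.09-fold. They included Itga9, an integrin chain (10.2, 9.38 and 13.3 CPM in ST2-low and 3.77, 6.38 and 5.999 CPM in ST2-high; 2.09-fold, adjusted p = 2.83e-05), and Syde2, a GTPase-activating protein (24.2, 24.3 and 28.9 CPM in ST2-low and 11.1, 14.1 and 12 CPM in ST2-high; 2.09-fold, adjusted p = 8.64e-09). Adcy6 and Gucy1a3, which make the cyclic nucleotides cAMP and cGMP, were 1.82-fold and 1.902-fold lower (adjusted p = 8.29e-09 and 3.09e-05). Ryr2, a calcium release channel, was 1.97-fold lower (8.44, 6.78 and 8.9 CPM in ST2-high against 15.5, 16.7 and 15.5 CPM in ST2-low, adjusted p = 1.97e-06). That the groups did not overlap in these 5 genes was a condition of the rule. Tubb2a and Tubb2b also fell, both by 1.83-fold, but they are near-identical tubulin copies between which reads could have been divided, and their values are uncertain.

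Counted in CPM rather than in folds, the largest gains were in Ahnak, Actb, Pim1, Il1rl1, Kdm6b, Icos, Odc1, Ikzf2, Tnfrsf1b and Serinc3. Pim1, a survival kinase induced by cytokines, measured 799, 813 and 796 CPM in ST2-low and 1401, 1342 and 1395 CPM in ST2-high (1.72-fold, adjusted p = 1.01e-13). Kdm6b, a demethylase of the repressive histone mark H3K27me3, was 1.52-fold higher (1305, 1196 and 1315 CPM in ST2-high against 808, 839.9 and 859 CPM in ST2-low, adjusted p = 1.46e-10), and Odc1, the first enzyme of polyamine synthesis, 1.54-fold (1134, 1029 and 1041 CPM in ST2-high against 707, 690.4 and 691 CPM in ST2-low, adjusted p = 1.11e-07). The largest losses were in the nuclear RNA Malat1 (adjusted p = 0.00949 with all samples; 0.0768 without ST2-high replicate 1 and 0.0792 without ST2-low replicate 2) and in Ccr7, Vps37b, Satb1, Dusp10, Smc4, Lrig1, Prrc2c, Ssh2 and Tmem64. Lrig1, a membrane protein that restrains growth factor receptors, had 1252, 1230.1 and 1159 CPM in ST2-low and 909, 837 and 963 CPM in ST2-high (1.34-fold lower, adjusted p = 3.37e-07). None of these named losses reached 2-fold.

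**Figure D2:**
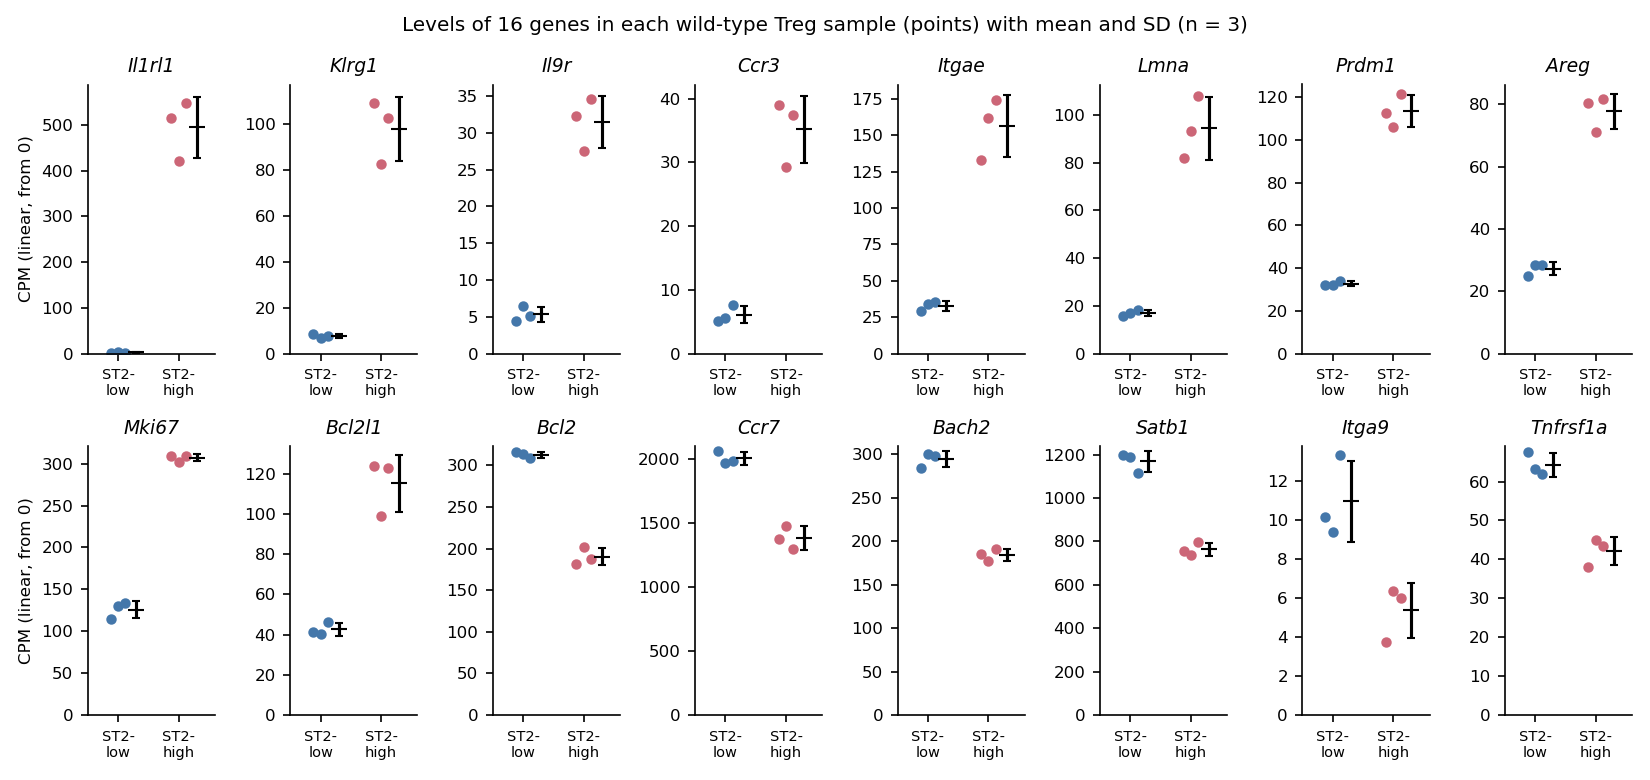
Level in CPM (vertical axes, linear from 0) of 16 genes in each of the 3 ST2-low and 3 ST2-high samples (points), with the mean and SD of each group (n = 3) beside them. The 16 genes were picked from those called, Il1rl1 of the sort included, so the lack of overlap between their groups is a description. The rises of Il1rl1, Klrg1 and Il9r are far larger than the falls of Bcl2, Ccr7, Bach2 and Satb1.

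The list of effector Treg genes moved almost as a whole. Of its 42 tested members, 37 were called higher and 0 lower (edgeR; 1 at an unadjusted p under 0.05, 1 by DESeq2 and 0 by limma-voom; 1 without ST2-low replicate 1 or ST2-high replicate 2), against 15.3% and 10.8% of all tested genes, and the median log2 fold change was 0.93 against -0.0024 for all. The list shares members with other lists, and it was chosen with earlier results of these samples known. Prdm1, which encodes the effector regulator Blimp-1, measured 31.99, 31.9 and 34.2 CPM in ST2-low and 113, 106 and 121 CPM in ST2-high (3.47-fold, adjusted p = 1.49e-18). Icos, the costimulatory receptor of effector Tregs, had 443, 442 and 427 CPM in ST2-low and 826, 839 and 815 CPM in ST2-high (1.89-fold, adjusted p = 4.14e-15). Tigit, a co-inhibitory receptor, had 84.5, 94.4 and 96.8 CPM in ST2-low and 173, 168 and 175 CPM in ST2-high (1.87-fold, adjusted p = 5.47e-07). In all 3 the samples of a group lay close together and the groups were well separated. The 5 members that were not called included Ctla4, the checkpoint receptor through which Tregs strip costimulatory ligands, with 1942, 2030.1 and 2015 CPM in ST2-low and 2040.3, 2160.3 and 2167 CPM in ST2-high (adjusted p = 0.225), Itgb8 and Plin2. Lag3, another inhibitory receptor, went the other way without being called, with 13.8, 16.9 and 19.7 CPM in ST2-low and 10.9, 14.96 and 10.02 CPM in ST2-high. Its adjusted p was 0.0767 with all samples, 0.0103 without ST2-high replicate 2 and 0.0283 without ST2-low replicate 1, and 7 of 17 alternatives called it lower.

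General Treg identity genes were divided: 13 of 27 were called higher and 9 lower, against 15.3% and 10.8% of all tested genes, with a median of 0.1. Foxp3 was 1.23-fold higher (adjusted p = 0.000139), Ikzf2, which encodes Helios, 1.35-fold (1019, 1115 and 1045 CPM in ST2-low and 1397, 1379.6 and 1514 CPM in ST2-high, adjusted p = 2.75e-07) and Nrp1, a surface marker of thymic Tregs, 1.35-fold (209, 218 and 210.4 CPM in ST2-low and 285, 291 and 283 CPM in ST2-high, adjusted p = 4.14e-08). The lower members were led by Gpr83, an orphan receptor of resting Tregs (42.7, 40.3 and 44.98 CPM in ST2-low and 22.6, 30.3 and 26.2 CPM in ST2-high; 1.63-fold, adjusted p = 1.04e-07), and by the transcription factors Bach2 and Satb1. Stat5a, a transducer of interleukin-2, was 1.15-fold lower (adjusted p = 0.00252) while its twin Stat5b was not called (809 ± 64.2 CPM in ST2-high against 852 ± 21.1 CPM in ST2-low, adjusted p = 0.377). Izumo1r, which encodes folate receptor 4, was 1.17-fold lower (191, 183 and 191 CPM in ST2-low and 168, 164 and 152 CPM in ST2-high, adjusted p = 0.00149).

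Genes of naive and central, lymph node homing T cells were lower. Of 28 tested, 21 fell and 1 rose, against 10.8% and 15.3% of all tested genes, and the median was -0.52 on the log2 scale. Ccr7, the receptor that guides T cells into lymph nodes, fell 1.45-fold, with 2062, 1969 and 1981 CPM in ST2-low and 1374, 1476 and 1295 CPM in ST2-high (adjusted p = 2.35e-09). S1pr1, the receptor for exit from lymphoid organs, fell 1.33-fold (1022, 912 and 872 CPM in ST2-low and 753, 701 and 657 CPM in ST2-high, adjusted p = 2.87e-06), and Klf2, the factor that drives S1pr1, 1.42-fold (700.2, 668 and 652 CPM in ST2-low and 468, 490.2 and 461 CPM in ST2-high, adjusted p = 1.03e-08). The groups did not overlap in any of these, which the choice of called genes favours. Tcf7 and Lef1, factors of resting T cells, fell 1.41-fold and 1.298-fold (adjusted p = 8.7e-08 and 9.25e-06), and Bach2, a repressor of effector programmes, 1.596-fold (284, 301 and 298 CPM in ST2-low and 185, 177 and 191 CPM in ST2-high, adjusted p = 2.78e-11). The exception was Il7r, the receptor for the survival cytokine interleukin-7, which rose 1.37-fold: 271, 285 and 274 CPM in ST2-low and 393, 385 and 360.2 CPM in ST2-high (adjusted p = 4.46e-08).

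**Figure D3:**
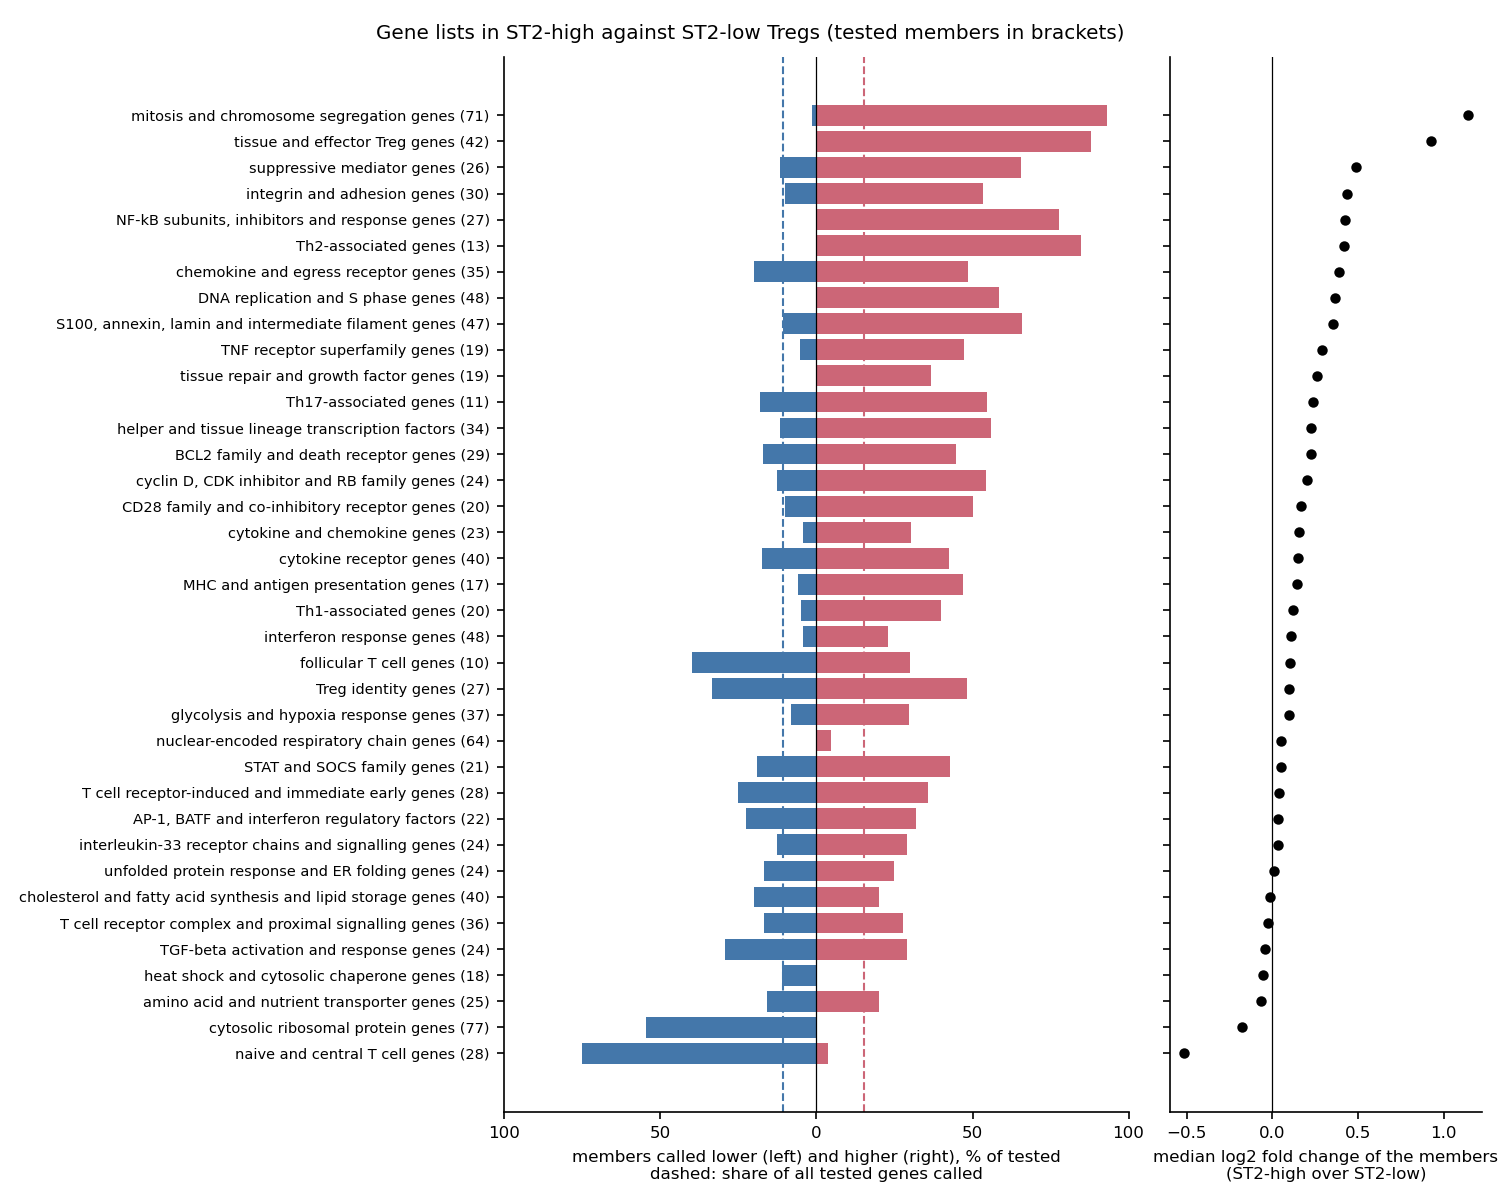
Share of tested members called higher (red, to the right) and lower (blue, to the left) for each gene list with at least 10 tested members (left panel, percent; dashed lines give 15.3% and 10.8% of all tested genes) and the median log2 fold change of the members (right panel). Mitosis and effector Treg genes lie at the top with nearly all members called higher, and naive and ribosomal protein genes at the bottom.

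Among transcription factors of T cell lineages, 19 of 34 were called higher and 4 lower, against 15.3% and 10.8% of all tested genes. Gata3, the regulator of the Th2 lineage, had 144, 146 and 152 CPM in ST2-low and 256, 226 and 256 CPM in ST2-high (1.67-fold, adjusted p = 4.13e-12). Rora, a nuclear receptor shared by innate type 2 cells and tissue Tregs, had 86.6, 86.8 and 86.7 CPM in ST2-low and 206, 183 and 221 CPM in ST2-high (2.35-fold, adjusted p = 1.28e-15). Pparg, a lipid-sensing receptor known from fat Tregs, was low but higher in each sample, with 1.08, 0.993 and 0.955 CPM in ST2-low and 3.31, 3.13 and 3.76 CPM in ST2-high (3.35-fold, adjusted p = 4.22e-05). In these 3 genes each ST2-high sample exceeded each ST2-low sample, which is a description of called genes. Zbtb46, a zinc finger repressor, had 3.03, 4.52 and 3.77 CPM in ST2-low and 21.4, 17.3 and 18.5 CPM in ST2-high (5.07-fold, adjusted p = 8.51e-13). Its relative Zbtb32 rose 2.49-fold (adjusted p = 1.94e-06). A pair of opposed regulators went in opposite directions: Id2 rose 1.96-fold (adjusted p = 1.83e-13) and Id3 fell 1.44-fold (adjusted p = 0.000657), and Prdm1 rose while Bcl6, which it represses, fell 1.599-fold (207, 219.9 and 211 CPM in ST2-low and 134, 141 and 124 CPM in ST2-high, adjusted p = 1.97e-09). Tbx21, the regulator of Th1 cells, was not called (13.6 ± 1.43 CPM in ST2-high against 11.5 ± 1.72 CPM in ST2-low, adjusted p = 0.186). Of the Th2 list, 11 of 13 tested members, Il1rl1 of the sort included, were higher and 0 lower (edgeR; 0 at an unadjusted p under 0.05, 0 by DESeq2 and 0 by limma-voom), but the Th2 cytokines Il4, Il5 and Il13 were too low to be tested in either group. Rises were not limited to Th2 genes: 8 of 20 tested Th1 members were higher and 1 lower. That lower count was 0 without ST2-low replicate 1, ST2-low replicate 2, ST2-high replicate 1 or ST2-high replicate 2, and 2 without ST2-high replicate 3. Of 11 tested Th17 members 6 were higher and 2 lower.

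In the AP-1, BATF and IRF families the members moved both ways. Batf, a partner of Irf4 in effector Tregs, rose 2.05-fold (17.9, 17.5 and 18.6 CPM in ST2-low and 41.3, 35.4 and 33.2 CPM in ST2-high, adjusted p = 1.37e-10) and Irf4 1.91-fold (96.8, 90.1 and 93.5 CPM in ST2-low and 174, 185 and 176 CPM in ST2-high, adjusted p = 3.06e-14). Jun, a core AP-1 subunit, fell 1.49-fold (248, 251 and 245 CPM in ST2-low and 160.2, 172 and 167 CPM in ST2-high, adjusted p = 2.06e-10), as did the repressors Bach1, Mafk and Maff (1.27-fold, 1.24-fold and 1.2-fold; adjusted p = 1.36e-05, 0.000256 and 0.00439). In all, 7 of 22 rose and 5 fell, against 15.3% and 10.8% of all tested genes.

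Cytokine receptors were the first of several receptor families with a mixed pattern: 17 of 40 tested, Il1rl1 of the sort included, were called higher and 7 lower. The shares over all tested genes were 15.3% and 10.8%. After Il1rl1 the largest rise was in Il9r, the receptor for interleukin-9, a type 2 cytokine, with 4.43, 6.399 and 5.13 CPM in ST2-low and 32.3, 27.6 and 34.5 CPM in ST2-high (5.92-fold, adjusted p = 8.12e-16). Il17rb, the receptor for interleukin-25, had 1.57, 2.76 and 2.96 CPM in ST2-low and 9.56, 7.42 and 9.16 CPM in ST2-high (3.58-fold, adjusted p = 1.55e-08). Il10ra, which lets cells respond to interleukin-10, had 74.5, 80.3 and 74.8 CPM in ST2-low and 148, 135 and 162 CPM in ST2-high (1.94-fold, adjusted p = 1.61e-13). No sample of one group reached the range of the other in these 3 genes, which were picked from those called. The receptors that fell were those of interleukin-6, interferons and TGF-beta: Il6ra 1.15-fold, Il6st 1.23-fold, Ifngr2 1.49-fold, Ifnar2 1.24-fold, Tgfbr2 1.15-fold and Tgfbr3 1.39-fold (adjusted p between 1.35e-09 for Ifngr2 and 0.00337 for Tgfbr2). The seventh, Csf1r, is a macrophage receptor and moved with the myeloid markers (adjusted p = 0.0183, and 0.0937 without ST2-high replicate 1, 0.0719 without ST2-high replicate 3 and 0.159 without ST2-low replicate 3). Ifngr2, the signalling chain for interferon-gamma, had 227, 199.6 and 196 CPM in ST2-low and 142, 140.1 and 134 CPM in ST2-high, while its partner Ifngr1 was not called (adjusted p = 0.878).

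The promoter of Il9r is shown because this gene had the largest rise of a cytokine receptor that was not used in the sort. It is given on its minus strand, chr11:32200250-32200529 (GRCm38.p6, RefSeq), from 250 bases before the start to 30 bases from it, with AGATAA or TTATCT in capitals.
Il9r: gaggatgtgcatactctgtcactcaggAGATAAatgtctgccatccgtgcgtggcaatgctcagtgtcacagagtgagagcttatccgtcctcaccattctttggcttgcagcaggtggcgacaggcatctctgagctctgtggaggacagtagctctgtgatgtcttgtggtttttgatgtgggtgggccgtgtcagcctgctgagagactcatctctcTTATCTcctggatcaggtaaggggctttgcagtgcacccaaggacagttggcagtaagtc
The matches lay 223 and 30 bases before the start. Among effector Treg genes, 6 of the 31 with a promoter window (19.4%) held this motif, against 6.55% of all tested genes. The members were Batf, Ccr8, Ccr2, Tigit, Cd44 and Il9r. The AP-1 motif TGANTCA was found in another 6 of 31 (Prdm1, Ccr4, Fgl2, Gzmb, Havcr2 and Zbtb46) against 4.74% of all. These shares rest on few genes and were not tested.

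Components that carry cytokine signals also differed. Cish, an inhibitor induced by STAT5, had 190, 176 and 191 CPM in ST2-low and 285, 269 and 279 CPM in ST2-high (1.497-fold, adjusted p = 4.34e-09). Socs2, another STAT5 target, rose 1.44-fold (adjusted p = 0.000133). Jak2, a receptor-bound kinase, rose 1.38-fold (adjusted p = 6.66e-08), and Jak1 fell 1.13-fold (1178 ± 19.2 CPM in ST2-high against 1332 ± 22.8 CPM in ST2-low, adjusted p = 0.00774). Socs5 had 40.2, 37.7 and 35.02 CPM in ST2-low and 60.2, 53.98 and 78.5 CPM in ST2-high, with ST2-high replicate 3 the highest (1.7-fold, adjusted p = 0.00117).

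Receptors that direct cells to tissue moved both ways. Of 35 tested chemokine, sphingosine and lipid receptors, 17 were called higher and 7 lower (4 without ST2-high replicate 1 or ST2-high replicate 3), against 15.3% and 10.8% of all tested genes. Ccr3, the eotaxin receptor known from eosinophils and type 2 cells, had 5.08, 5.63 and 7.64 CPM in ST2-low and 38.95, 29.2 and 37.4 CPM in ST2-high (5.75-fold, adjusted p = 4e-12). Ccr2, an inflammatory receptor, had 64.1, 50.1 and 48.7 CPM in ST2-low and 185, 198 and 195 CPM in ST2-high (3.55-fold, adjusted p = 2.21e-12). Ccr4, which guides Tregs to skin and inflamed tissue, had 54.5, 46.5 and 48.9 CPM in ST2-low and 111, 111 and 118 CPM in ST2-high (2.26-fold, adjusted p = 1.48e-11). Gpr55 and Ccrl2 rose 3.79-fold and 2.41-fold (adjusted p = 1.72e-12 and 1.01e-12), and Ccr8, Ccr6 and Cxcr3 between 1.48-fold and 1.51-fold. Against these stood Ccr7 and S1pr1, given above, Cxcr5, the follicle-homing receptor (47.9, 44.3 and 43.02 CPM in ST2-low and 34.9, 33.98 and 30.9 CPM in ST2-high; 1.35-fold lower, adjusted p = 3.09e-05), and P2rx7, an ATP-gated channel (1.24-fold lower, adjusted p = 0.00021).

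**Figure D4:**
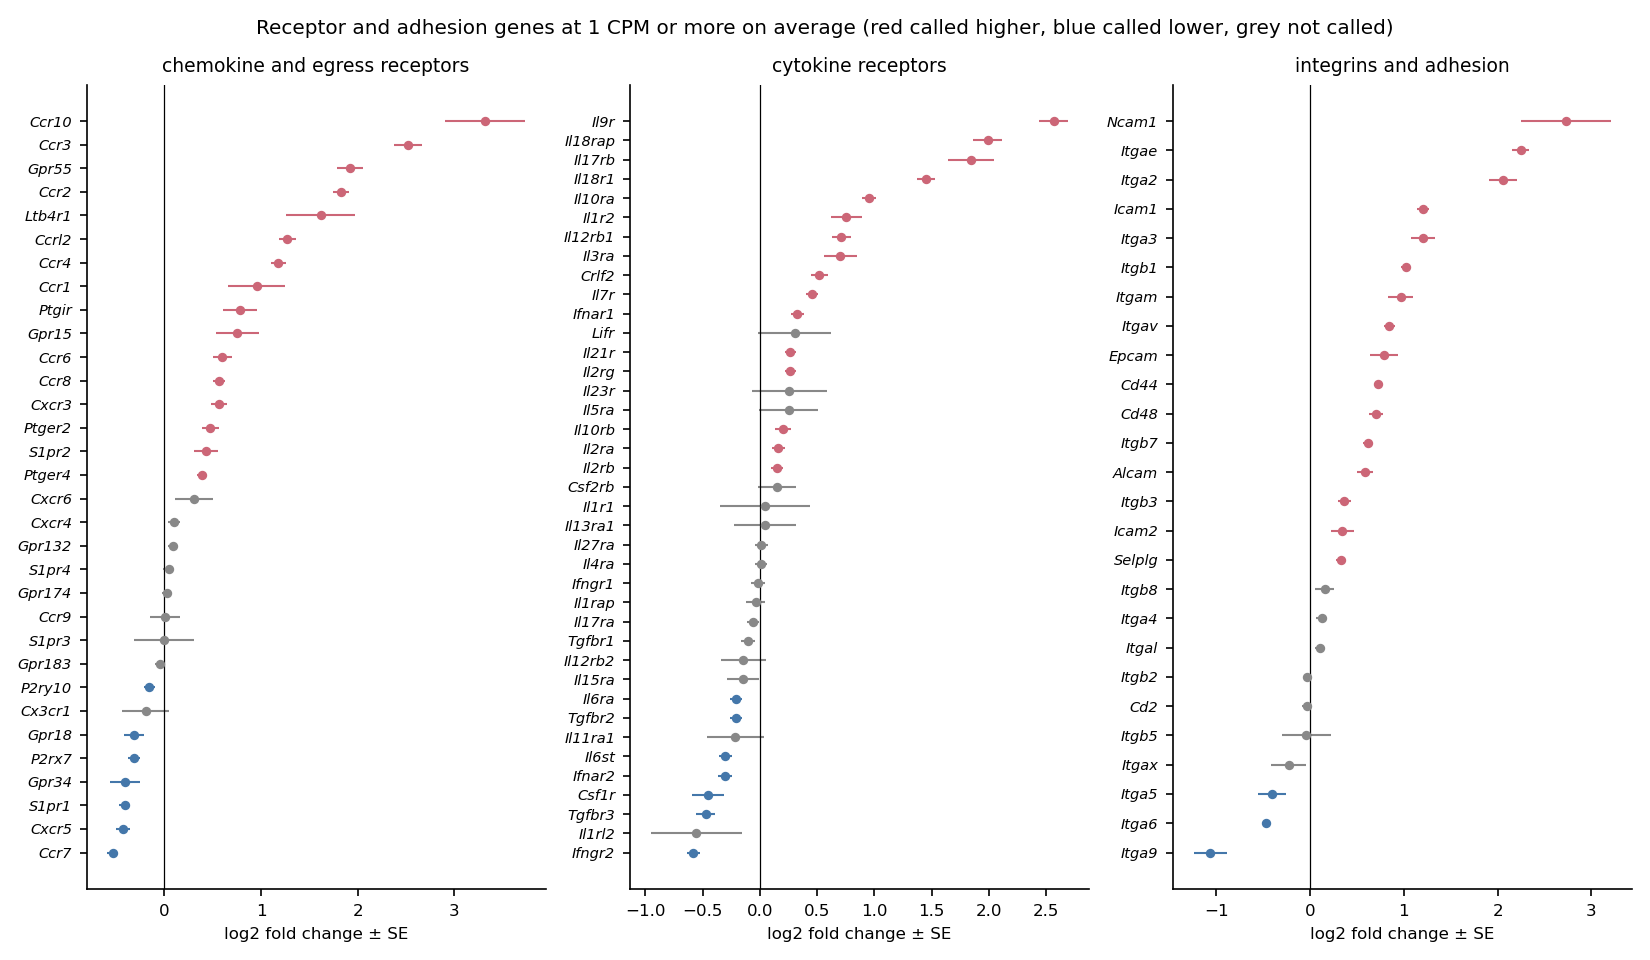
Log2 fold change of ST2-high over ST2-low with its SE (horizontal axes) for chemokine and egress receptors, cytokine receptors without Il1rl1, and integrins and adhesion genes with a mean of at least 1 CPM (without genes not reported here), with genes called higher in red, lower in blue and not called in grey. Il9r, Ccr3, Ccr10 and Itgae lie far to the right, while the lower genes, among them Ccr7, Ifngr2 and Itga9, lie within about 1 log2 unit of 0.

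Adhesion genes followed a similar division, with 16 of 30 higher and 3 lower, against 15.3% and 10.8% of all tested genes. Itgae, which encodes CD103, the integrin that holds lymphocytes to epithelial E-cadherin, had 29.1, 34.2 and 35.3 CPM in ST2-low and 133, 162 and 174 CPM in ST2-high (4.74-fold, adjusted p = 8.95e-13). Itga2, a collagen-binding chain, had 3.94, 3.31 and 5.53 CPM in ST2-low and 16.7, 19.6 and 17.3 CPM in ST2-high (4.16-fold, adjusted p = 2.4e-12). Itgb1, the shared beta chain of many matrix receptors, had 227, 237 and 231 CPM in ST2-low and 487, 469 and 452 CPM in ST2-high (2.02-fold, adjusted p = 6.64e-16). The lowest ST2-high sample exceeded the highest ST2-low sample by more than 1.5-fold in all 3, which were picked from those called. Itgav, which activates latent TGF-beta, rose 1.796-fold (adjusted p = 2.52e-12), and Itga6, a laminin-binding chain, fell 1.38-fold (316, 318 and 329 CPM in ST2-low and 229, 231 and 237 CPM in ST2-high, adjusted p = 7.42e-09).

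Among receptors of the TNF family, 9 of 19 were higher and 1 lower (2 without ST2-high replicate 3), against 15.3% and 10.8% of all tested genes. Tnfrsf1b, the TNF receptor of effector Tregs, had 727, 722 and 724 CPM in ST2-low and 1080.3, 986 and 1139 CPM in ST2-high (1.47-fold, adjusted p = 1.95e-09), while Tnfrsf1a, the death-domain receptor for the same ligand, was the lower one with 67.7, 63.1 and 61.96 CPM in ST2-low and 37.9, 44.9 and 43.4 CPM in ST2-high (1.53-fold, adjusted p = 3.41e-08). Both differences left the groups without overlap, in opposite directions. The costimulatory receptors Tnfrsf9, Tnfrsf4 and Tnfrsf18, known as 4-1BB, OX40 and GITR, rose 1.66-fold, 1.47-fold and 1.45-fold (adjusted p = 4.34e-11, 1.52e-09 and 3.2e-09). Of co-inhibitory and costimulatory receptors, Havcr2, which encodes TIM-3, rose 3.33-fold (5.08, 5.08 and 4.17 CPM in ST2-low and 15.6, 15.5 and 16.5 CPM in ST2-high, adjusted p = 8.34e-11) and Cd200r1 2.77-fold (7.403, 7.72 and 7.09 CPM in ST2-low and 19.4, 18.3 and 24.1 CPM in ST2-high, adjusted p = 1.99e-11), and Cd96 fell 1.29-fold (128, 115 and 121 CPM in ST2-low and 94.9, 101 and 85.6 CPM in ST2-high, adjusted p = 3.48e-05).

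Molecules through which Tregs act on other cells were mostly higher: 17 of 26 tested suppressive genes rose and 3 fell, with a median of 0.49. The shares over all tested genes were 15.3% and 10.8%. Gzmb, a cytotoxic protease, had 9.35, 10.04 and 12.4 CPM in ST2-low and 35.5, 37.6 and 35.7 CPM in ST2-high (3.42-fold, adjusted p = 4.97e-14). Fgl2, a secreted ligand of inhibitory Fc receptors, had 23.9, 22.5 and 22.1 CPM in ST2-low and 75.2, 71.5 and 68.4 CPM in ST2-high (3.15-fold, adjusted p = 5.1e-17). Ebi3, a chain of interleukin-35, had 5.13, 4.69 and 4.32 CPM in ST2-low and 12.1, 10.2 and 9.95 CPM in ST2-high (2.297-fold, adjusted p = 6.39e-07). In all 3 the ST2-high samples were more than 1.5 times as high as any ST2-low sample, a description of called genes. Il10, the main anti-inflammatory cytokine of Tregs, differed less, with 69.5, 69.8 and 68.3 CPM in ST2-low and 86.3, 78.97 and 86.2 CPM in ST2-high (1.21-fold, adjusted p = 0.00102). The groups did not overlap here either. Lrrc32, which anchors latent TGF-beta as GARP, and Nt5e, the ecto-enzyme CD73, were called lower with all samples (both 1.14-fold; adjusted p = 0.0118 and 0.0084). Those calls were not kept throughout: the adjusted p of Lrrc32 was 0.11 without ST2-high replicate 1 and 0.0583 without ST2-low replicate 3, and that of Nt5e 0.058 without ST2-low replicate 1. Gzma and Prf1, further cytotoxic genes, were not called (adjusted p = 0.686 and 0.119; 1 of 17 alternatives called Prf1 lower).

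Growth and repair factors gave 7 higher and 0 lower of 19 tested (edgeR; 2 at an unadjusted p under 0.05, 0 by DESeq2 and 1 by limma-voom; 1 without ST2-low replicate 2 or ST2-high replicate 3). Among all tested genes 15.3% were higher and 10.8% lower. Areg, which encodes amphiregulin, the epidermal growth factor receptor ligand of repair Tregs, had 24.96, 28.5 and 28.4 CPM in ST2-low and 80.4, 71.1 and 81.6 CPM in ST2-high (2.85-fold, adjusted p = 2.01e-15). Metrnl, a secreted factor of fat and immune cells, had 4.701, 4.52 and 4.47 CPM in ST2-low and 13.2, 13.2 and 16.5 CPM in ST2-high (3.11-fold, adjusted p = 1.52e-09). Penk, the precursor of the opioid peptide enkephalin, had 27.2, 24.3 and 29.6 CPM in ST2-low and 57.5, 45.2 and 54.8 CPM in ST2-high (1.94-fold, adjusted p = 2.57e-09). The 3 genes, picked from those called, were higher in every ST2-high sample. Adam17, the protease that releases amphiregulin from the membrane, was 1.21-fold higher (adjusted p = 0.000707) and Furin, a protein convertase that matures TGF-beta, 1.31-fold (adjusted p = 7.06e-07). The promoter of Areg is shown with TGACGTCA, the cAMP response element known to drive it, in capitals (chr5:91139349-91139628, plus strand, GRCm38.p6, RefSeq, 250 bases before to 30 from the start).
Areg: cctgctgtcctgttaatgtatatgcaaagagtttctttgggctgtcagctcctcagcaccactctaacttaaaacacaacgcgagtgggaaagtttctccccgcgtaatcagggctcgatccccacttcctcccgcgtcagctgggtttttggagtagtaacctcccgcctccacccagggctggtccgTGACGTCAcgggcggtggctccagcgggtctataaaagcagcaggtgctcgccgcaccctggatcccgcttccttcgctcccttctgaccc
The match lay 61 bases before the start, and 3.26% of all promoter windows held one. Among chemokines, higher levels were found for Cxcl10 (6.48, 6.34 and 7.24 CPM in ST2-low and 20.8, 19.8 and 16.2 CPM in ST2-high; 2.84-fold, adjusted p = 5.88e-10) and Cxcl2 (2.92, 2.48 and 2.96 CPM in ST2-low and 10.04, 10.5 and 8.77 CPM in ST2-high; 3.502-fold, adjusted p = 1.54e-09), both known as targets of NF-kB. In the TGF-beta pathway Smad3 rose 1.49-fold (196, 191 and 187 CPM in ST2-low and 290.3, 264 and 298 CPM in ST2-high, adjusted p = 1.12e-09) and Nrros, an anchor of latent TGF-beta, 1.698-fold (49.7, 52.5 and 52.3 CPM in ST2-low and 85.3, 81.2 and 96.2 CPM in ST2-high, adjusted p = 8.07e-11), while Tgfbr2 and Tgfbr3 fell as given above.

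Cell division genes were higher with few exceptions. Of 71 tested genes of mitosis and chromosome segregation, 66 were called higher and 1 lower, against 15.3% and 10.8% of all tested genes. The median was 1.14 on the log2 scale. Mki67, the proliferation marker, had 115, 129.6 and 134 CPM in ST2-low and 309.7, 302 and 309 CPM in ST2-high (2.44-fold, adjusted p = 3.47e-17). Top2a, the topoisomerase that untangles chromosomes, had 79.4, 79.3 and 71.4 CPM in ST2-low and 184, 197 and 177 CPM in ST2-high (2.43-fold, adjusted p = 5.1e-17). Kif11, a motor of the spindle, had 27.4, 24.9 and 26.4 CPM in ST2-low and 66.1, 70.8 and 59 CPM in ST2-high (2.49-fold, adjusted p = 3.83e-14). Each was higher in every ST2-high sample by a similar factor. Ccna2, the cyclin of S and G2 phases, had 13.8, 13.8 and 11.5 CPM in ST2-low and 34.8, 40.2 and 32.1 CPM in ST2-high (2.74-fold, adjusted p = 1.13e-12). These 4 rises lay between 2.43-fold and 2.74-fold although the levels of the genes differed. The 1 lower member was Smc4, a condensin subunit with uses outside mitosis, at 1072, 1045 and 1024 CPM in ST2-low and 705, 753 and 682 CPM in ST2-high (1.47-fold, adjusted p = 1.08e-09).

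Replication genes were higher less uniformly, where 15.3% of all tested genes were higher and 10.8% lower. Of 48 tested, 28 rose and 0 fell (edgeR; 0 at an unadjusted p under 0.05, 0 by DESeq2 and 0 by limma-voom), with a median of 0.37. Rrm2, the regulated subunit of ribonucleotide reductase, had 17.2, 20.3 and 21.7 CPM in ST2-low and 45.4, 47.2 and 42.5 CPM in ST2-high (2.28-fold, adjusted p = 3.51e-12), and Tk1, thymidine kinase, 5.08, 5.24 and 4.82 CPM in ST2-low and 10.6, 10.5 and 9.295 CPM in ST2-high (2.02-fold, adjusted p = 2.35e-06). Mcm5, a helicase subunit, rose only 1.399-fold (adjusted p = 2.16e-06). Among regulators of the cycle, 13 of 24 were higher and 3 lower: Myc rose 1.62-fold (34.9, 33.5 and 41.8 CPM in ST2-low and 60.3, 59.5 and 58.9 CPM in ST2-high, adjusted p = 9.24e-09) and E2f8, a late repressor of E2F targets, 2.45-fold (adjusted p = 2.85e-07). Cdkn1b, the inhibitor p27 of quiescent cells, fell 1.16-fold (503, 495 and 492 CPM in ST2-low and 430.2, 461 and 389 CPM in ST2-high, adjusted p = 0.00311), as did the D-type cyclin Ccnd3 (1.24-fold, adjusted p = 4.87e-05).

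**Figure D5:**
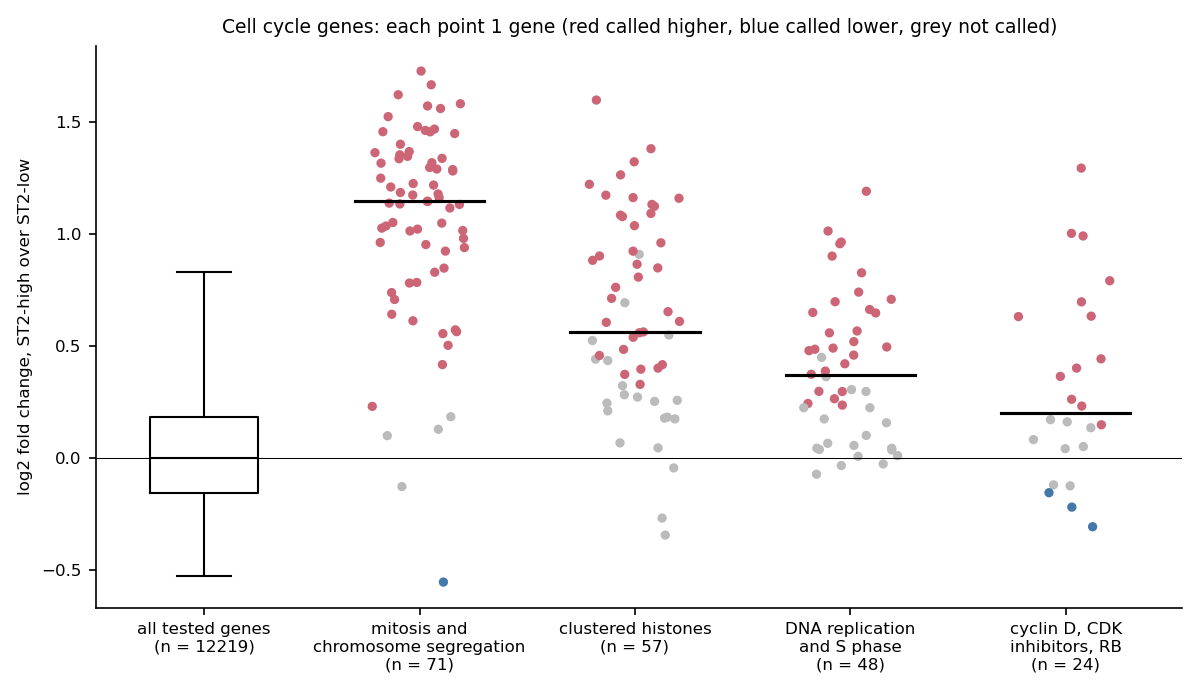
Log2 fold change of ST2-high over ST2-low (vertical axis) for all tested genes (box with the quartiles, whiskers from the 5th to the 95th percentile) and for each gene of 4 cell cycle groups (points; red called higher, blue called lower, grey not called; the bar is the median). The median is 1.14 for the 71 mitosis genes, 0.56 for the 57 clustered histones, 0.37 for the 48 replication genes and 0.20 for the 24 cyclin and inhibitor genes.

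Promoters of 3 mitotic genes that hold both motifs named here are shown because the group moved together; of others looked at, Ccnb1 and Bub1 held CCAAT boxes without a CHR element and Nusap1 neither. Genes of this phase are known to share a CCAAT box and a CHR element (cell cycle genes homology region, TTTGAA), read by NF-Y and the MuvB complex. The windows are those of Kif11 (chr19:37376132-37376411, plus strand), Ccnb2 (chr9:70421525-70421804, minus strand) and Mki67 (chr7:135716350-135716629, minus strand), from 250 bases before to 30 from the start (GRCm38.p6, RefSeq). Capitals mark CCAAT or its reverse complement ATTGG, and TTTGAA or TTCAAA.
Kif11: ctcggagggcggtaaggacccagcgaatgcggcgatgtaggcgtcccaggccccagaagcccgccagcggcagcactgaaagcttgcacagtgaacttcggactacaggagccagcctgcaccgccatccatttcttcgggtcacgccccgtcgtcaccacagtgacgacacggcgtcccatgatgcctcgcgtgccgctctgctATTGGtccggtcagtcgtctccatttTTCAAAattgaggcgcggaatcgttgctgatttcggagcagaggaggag
Ccnb2: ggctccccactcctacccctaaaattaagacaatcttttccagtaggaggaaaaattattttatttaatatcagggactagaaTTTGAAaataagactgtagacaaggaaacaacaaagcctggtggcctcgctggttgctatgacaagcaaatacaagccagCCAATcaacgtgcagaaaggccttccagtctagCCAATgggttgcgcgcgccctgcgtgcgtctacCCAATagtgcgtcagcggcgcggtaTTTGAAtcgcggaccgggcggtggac
Mki67: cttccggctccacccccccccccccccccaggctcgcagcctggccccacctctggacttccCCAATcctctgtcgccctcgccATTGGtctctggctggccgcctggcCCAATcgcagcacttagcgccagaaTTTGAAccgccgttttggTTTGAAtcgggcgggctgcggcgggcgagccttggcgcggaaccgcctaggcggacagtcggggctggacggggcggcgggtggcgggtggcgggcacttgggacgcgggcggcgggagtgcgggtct
In Kif11 the CCAAT box lay 45 and the CHR element 19 bases before the start. Ccnb2 had 3 CCAAT boxes, at 87, 54 and 21 bases before the start, and a CHR element 167 bases before and another 4 bases after it. Mki67 had 3 CCAAT boxes, between 188 and 141 bases before its start, and CHR elements at 116 and 98 bases. Of the 57 mitosis genes with a promoter window, 35 (61.4%) held both motifs within 250 bases before and 50 after the start, against 5.01% of the 9073 windows of tested genes and 7.69% of the replication genes. The CHR element alone was in 71.9% of the mitosis genes, 10.3% of the replication genes and 11.9% of all. Among its matches in the mitosis genes, 74.1% lay within 50 bases of the start, against 23.2% of matches over all genes. In the 250 bases before the start alone, the mitosis share was 38.6%. An E2F motif (TTTGGCGC) was found in 20.5% of the replication genes, 7.02% of the mitosis genes and 1.10% of all. Outside the mitosis and replication lists, 15.3% of the 235 windows of genes called higher by 2-fold or more held a CHR element.

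The NF-kB system, which lies downstream of ST2, of TNF receptors and of the antigen receptor alike, was higher in most members: 21 of 27 tested genes rose and 0 fell (edgeR; 0 at an unadjusted p under 0.05, 0 by DESeq2 and 0 by limma-voom), with a median of 0.43. The shares over all tested genes were 15.3% higher and 10.8% lower. The inhibitors that NF-kB itself induces were among the genes that rose. Nfkbia, which encodes the inhibitor IkB-alpha, had 404, 431 and 430.1 CPM in ST2-low and 708, 699 and 742 CPM in ST2-high (1.698-fold, adjusted p = 3.25e-13). Nfkbie, the inhibitor IkB-epsilon, had 128, 136 and 135 CPM in ST2-low and 239, 239 and 256 CPM in ST2-high (1.84-fold, adjusted p = 2.79e-14). Nfkbiz, a nuclear cofactor, had 362, 401 and 384 CPM in ST2-low and 702, 660.2 and 707 CPM in ST2-high (1.805-fold, adjusted p = 6.06e-14). Each was higher in every ST2-high sample. Among known targets Cd83, a surface marker of activation, rose 2.102-fold (261, 269 and 287 CPM in ST2-low and 580.4, 558 and 579 CPM in ST2-high, adjusted p = 1.27e-15). Icam1, an adhesion ligand, rose 2.31-fold (51.8, 62.3 and 58.7 CPM in ST2-low and 133, 137 and 128 CPM in ST2-high, adjusted p = 1.39e-15). Tnfaip3, which encodes the deubiquitinase A20, had 3987, 4137 and 3979.6 CPM in ST2-low and 4346, 4298 and 4509 CPM in ST2-high and was not called (adjusted p = 0.0832; 1 of 17 alternatives called it). The promoter of Nfkbia is shown as the classic self-limiting target, with its NF-kB site in capitals (chr12:55492618-55492897, minus strand, GRCm38.p6, RefSeq, 250 bases before to 30 from the start).
Nfkbia: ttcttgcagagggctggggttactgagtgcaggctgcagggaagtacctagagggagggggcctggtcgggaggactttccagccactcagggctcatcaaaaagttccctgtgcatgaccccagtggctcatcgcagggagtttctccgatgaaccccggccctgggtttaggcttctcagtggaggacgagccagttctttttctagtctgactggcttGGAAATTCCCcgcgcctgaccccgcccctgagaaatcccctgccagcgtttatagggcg
The match lay 29 bases before the start. The same windows of Icam1, Nfkbie and Bcl2l1, also looked at, held no match. Of the 23 NF-kB genes with a window, 3 (13%) held the site (Nfkbia, Ltb and Cyld), against 0.397% of all.

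Survival genes of the BCL2 family moved in opposite directions. Bcl2l1, which encodes BCL-XL, had 41.1, 40.3 and 46.3 CPM in ST2-low and 124, 98.9 and 123 CPM in ST2-high (2.71-fold higher, adjusted p = 1.14e-13). Bcl2, the related survival protein, had 316, 314 and 309 CPM in ST2-low and 182, 202 and 188 CPM in ST2-high (1.64-fold lower, adjusted p = 9.48e-12), and Bcl2l11, the killer protein BIM, 218, 207 and 198 CPM in ST2-low and 144, 146 and 147 CPM in ST2-high (1.43-fold lower, adjusted p = 2.57e-09). The groups were apart in all 3, which were picked from those called. Casp1, the inflammatory caspase, was 1.81-fold higher (17.3, 17.7 and 18.5 CPM in ST2-high against 10.1, 9.49 and 9.95 CPM in ST2-low, adjusted p = 4.5e-07), and Tnfsf10, the death ligand TRAIL, 1.66-fold (38.7, 35.7 and 35.7 CPM in ST2-high against 24.5, 21.9 and 20.1 CPM in ST2-low, adjusted p = 2.9e-08). Of all 29 tested genes of survival and death, 13 rose and 5 fell, against 15.3% and 10.8% of all tested genes. The lower count was 2 without ST2-low replicate 1 or ST2-low replicate 2 and 3 without ST2-high replicate 1 or ST2-high replicate 2.

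Genes of the S100, annexin, lamin and actin groups were mostly higher, 31 of 47 against 5 lower. The shares over all tested genes were 15.3% and 10.8%. Lmna, which encodes lamins A and C of the nuclear envelope, had 15.6, 17.05 and 18.4 CPM in ST2-low and 81.95, 93.1 and 108 CPM in ST2-high (5.52-fold, adjusted p = 1.39e-15). S100a4, a small calcium-binding protein of memory and motile cells, had 20.97, 19.3 and 22.7 CPM in ST2-low and 94.2, 95.02 and 76.01 CPM in ST2-high (4.22-fold, adjusted p = 1.5e-17). Its relative S100a6 rose 3.81-fold (adjusted p = 2.35e-17). Their groups were far apart, with the lowest ST2-high sample at more than 3 times the highest ST2-low one in each. Vim, the intermediate filament vimentin, had 238, 222 and 242 CPM in ST2-low and 548, 567 and 517 CPM in ST2-high (2.32-fold, adjusted p = 4.11e-17). Myo1f, a motor of cell adhesion, had 40.3, 38.4 and 36.3 CPM in ST2-low and 102, 104 and 107 CPM in ST2-high (2.72-fold, adjusted p = 2.79e-17). Both genes were picked from those called, and neither overlapped between the groups. Rhob and Actn1, another GTPase and an actin crosslinker, fell 1.39-fold and 1.53-fold (adjusted p = 3.33e-07 and 2.48e-09).

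Genes induced by the antigen receptor showed no common direction, with 10 of 28 higher and 7 lower, against 15.3% and 10.8% of all tested genes. Irf4, Tnfrsf9, Tnfrsf4 and Myc were higher, as given above, and Cd5, which tracks receptor signal strength, rose 1.26-fold (437, 455 and 478 CPM in ST2-low and 552, 572 and 609 CPM in ST2-high, adjusted p = 6.98e-06). Egr1 and Egr2, immediate response factors, fell 1.23-fold and 1.29-fold (adjusted p = 0.000884 and 0.00598). Egr1 measured 87.9, 92.3 and 91.2 CPM in ST2-low and 72.9, 78.6 and 69.9 CPM in ST2-high, so that its groups were close without overlap. Nr4a2, a nuclear receptor induced by activation, fell 1.26-fold (adjusted p = 0.00576), and Dusp10 and Dusp6, phosphatases of MAP kinases, fell 1.45-fold and 1.26-fold (adjusted p = 3.62e-09 and 0.000698). In the receptor's own machinery Cblb, a ubiquitin ligase that restrains activation, fell 1.26-fold (711, 722 and 659 CPM in ST2-low and 545, 526 and 585 CPM in ST2-high, adjusted p = 1.23e-05), and Themis, a signal adaptor, 1.28-fold (adjusted p = 0.000781). Nfatc2 and Nfatc3 rose 1.21-fold and 1.26-fold (adjusted p = 0.000224 and 1.64e-05).

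Few genes of the respiratory chain were called, and genes of other metabolic pathways moved in both directions. Of 64 tested genes of oxidative phosphorylation, 3 were higher (1 without ST2-low replicate 3 or ST2-high replicate 1 and 9 without ST2-high replicate 3) and 0 lower (edgeR; 1 at an unadjusted p under 0.05, 0 by DESeq2 and 0 by limma-voom), or 4.69% called against 26.1% of all tested genes. Of 37 genes of glycolysis and hypoxia, 11 were higher (7 without ST2-low replicate 1 or ST2-high replicate 1 or ST2-high replicate 2 and 6 without ST2-low replicate 2) and 3 lower (5 without ST2-high replicate 3), against 15.3% and 10.8% of all tested genes. Egln3, a prolyl hydroxylase that marks the hypoxia factor for degradation, had 17.3, 18.5 and 15.7 CPM in ST2-low and 44.4, 38.3 and 40.6 CPM in ST2-high (2.402-fold, adjusted p = 3.23e-12), and Ddit4, a stress-induced brake on mTOR, 32.9, 36.3 and 37.9 CPM in ST2-low and 58.9, 64.5 and 70.9 CPM in ST2-high (1.81-fold, adjusted p = 5.52e-10). Slc16a3, the lactate exporter, fell 1.47-fold (98.8, 101 and 104 CPM in ST2-low and 64.97, 68.5 and 74.1 CPM in ST2-high, adjusted p = 6.77e-08), and Pdk1, which keeps pyruvate out of mitochondria, 1.27-fold (adjusted p = 6.56e-05). In lipid metabolism Dgat2, the last enzyme of triglyceride synthesis, rose 2.45-fold (22.5, 21.02 and 21.1 CPM in ST2-low and 57.3, 45.05 and 56.04 CPM in ST2-high, adjusted p = 3.23e-12) and Elovl5, an elongase of polyunsaturated fatty acids, 1.44-fold (232, 230.2 and 228 CPM in ST2-low and 348, 327 and 317 CPM in ST2-high, adjusted p = 2.53e-09). Abca1, the cholesterol exporter, fell 1.46-fold (64.4, 71.2 and 68.4 CPM in ST2-low and 50.7, 39.2 and 49.2 CPM in ST2-high, adjusted p = 1.8e-05). Among transporters Slc15a3, a lysosomal peptide carrier, rose 2.85-fold (4.92, 5.24 and 5.23 CPM in ST2-low and 14.4, 13.3 and 16.2 CPM in ST2-high, adjusted p = 1.28e-08), Slc7a1, an importer of arginine, rose 1.29-fold (adjusted p = 8.9e-07) and Slc7a5, the importer of leucine, fell 1.29-fold (adjusted p = 2.48e-05).

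Sensors of the unfolded protein response diverged: Ern1, which encodes IRE1, rose 1.81-fold (34.5, 40.4 and 40.3 CPM in ST2-low and 68.9, 61.2 and 79.04 CPM in ST2-high, adjusted p = 6.32e-09), Atf6 rose 1.32-fold (adjusted p = 1.26e-05) and Eif2ak3, which encodes PERK, fell 1.28-fold (187, 175 and 170.1 CPM in ST2-low and 146, 136 and 133 CPM in ST2-high, adjusted p = 5.87e-06). Of 18 heat shock genes, which respond to handling, 0 were higher (edgeR; 0 at an unadjusted p under 0.05, 0 by DESeq2 and 0 by limma-voom) and 2 lower (1 without ST2-low replicate 1 or ST2-low replicate 2 or ST2-low replicate 3 or ST2-high replicate 1 or ST2-high replicate 3), the latter 11.1% of the list against 10.8% of all tested genes. Of 48 interferon-induced genes, 11 were higher and 2 lower (1 without ST2-low replicate 3 or ST2-high replicate 2), or 27.1% called, near the 26.1% of all tested genes. The higher ones were led by guanylate-binding proteins: Gbp3 had 68.2, 66.1 and 58.7 CPM in ST2-low and 123, 108 and 114 CPM in ST2-high (1.79-fold, adjusted p = 7.51e-12), Gbp7 rose 1.55-fold (adjusted p = 1.76e-09) and Gbp5 1.54-fold (adjusted p = 1.18e-07). Usp18, a negative regulator of the type I interferon receptor, fell 1.59-fold (7.62, 6.01 and 6.03 CPM in ST2-low and 4.499, 3.59 and 4.09 CPM in ST2-high, adjusted p = 0.00265).

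Ribosomal protein genes were lower as a group by a small amount: 42 of 77 were called lower and 0 higher (edgeR; 0 at an unadjusted p under 0.05, 0 by DESeq2 and 0 by limma-voom), with a median of -0.18. Among all tested genes 10.8% were lower and 15.3% higher. The count of lower ribosomal protein genes depended on single samples, being 18 without ST2-low replicate 1 and 25 without ST2-low replicate 3 and 23 without ST2-high replicate 3, and the median without ST2-high replicate 3 was -0.097. It also depended on tool and scaling, with 60 by DESeq2, 57 with DESeq2 size factors in edgeR and 45 by limma-voom. With a minimum change of 1.5-fold it was 0. The summed level was 32041, 30555 and 30836 CPM in ST2-low and 28567, 29710 and 24255 CPM in ST2-high, with ST2-high replicate 3 the lowest. GIMAP genes, GTPases of resting lymphocytes, gave 4 lower and 0 higher of 8 (edgeR; 0 at an unadjusted p under 0.05, 0 by DESeq2 and 0 by limma-voom), led by Gimap6 with 1062, 1108 and 1116 CPM in ST2-low and 866, 895 and 866 CPM in ST2-high (1.25-fold, adjusted p = 5.68e-06).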

How the data were processed

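RNA of spleen Tregs was measured in 9 libraries, and the authors deposited 1 table of read counts per gene symbol, whole numbers per the file headers and values. Aligner, genome build, strand setting and sort: not given in the sources used here; overlapping or near-identical genes may share reads. Rows with date symbols (27) were left out. Counts were tested with edgeR 4.0.16 (TMM scaling, filterByExpr, robust quasi-likelihood fit over all 9 samples) for ST2-high minus ST2-low; SE is the log2 fold change over the root of F, and CPM use TMM factors. Samples of a group differed by more than sampling noise in all pairs. Replicate numbers were not used to pair samples, and whether they do so is not known.

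Members and gene lists (1370 entries matched by symbol, 15 by synonym, 15 unmatched) were chosen with earlier results of these data known. Named are the 15 largest called rises and falls with a mean of 10 CPM or more in the higher group and groups that did not overlap. Also named are the 10 largest in CPM, and up to 6 members of each list by adjusted p, with key members. Ifngr1 was added after its value was seen. Promoter windows come from RefSeq (GRCm38.p6; 9073 of 12219 tested genes), read on both strands at the most upstream start. Alternatives changed scaling, filter, tool, samples and depth. The code was tested on simulated data. A few genes that the naming rule covers are not reported here.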

Additional observations from a re-analysis of the deposited data

How the results depend on the processing

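The counts of 1872 higher and 1317 lower genes stayed within 1.5 times under other scalings, filters, tools and sets of samples, except with a minimum change of 1.5-fold, where 335 higher and 12 lower genes remained past the limit. Leaving out each replicate in turn gave 1521 to 1868 higher and 957 to 1398 lower genes. With a replicate block the counts were 1875 and 1335. Same-number correlations between ST2-low and ST2-high samples were 0.0984, -0.0626 and 0.0401. Not every sample correlated best with its own number, but so few samples cannot decide whether the numbers pair them. The split of calls depended on scaling and filter: 58.7% of calls were higher, 51.2% with DESeq2 size factors (1691 higher, 1612 lower) and 46.6% with at least 5 CPM in 3 samples (1456 and 1666). DESeq2's Wald test called 1611 and 1509 genes and limma-voom 1869 and 1364. Of 449 named genes, 321 were called, 261 of them under every alternative other than the 1.5-fold minimum and 88 with it too; 22 of the 128 not called passed under at least 1 alternative. No fold change of a called gene changed sign. Without ST2-high replicate 3, the effector list had 36 higher members, mitosis 64, replication 27 and NF-kB 21. The CHR share of mitosis genes was 71.9%, and 38.6% without the bases after the start. Depth limits genes under 1 CPM, where every called gene differed by 2-fold or more.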

Other observations

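Among genes outside the lists, several with low levels in ST2-low cells were higher by more than 4-fold. They were chosen after their values were seen. Tmprss13, a membrane-bound serine protease, had 0.648, 0.993 and 1.06 CPM in ST2-low and 5.54, 7.07 and 6.53 CPM in ST2-high (6.99-fold, adjusted p = 1.47e-10 by edgeR). Plcd1, a phospholipase of calcium signalling, had 1.08, 0.607 and 1.76 CPM in ST2-low and 6.91, 7.88 and 12 CPM in ST2-high (7.55-fold, adjusted p = 5.33e-06 by edgeR). Erbb2, a partner of the receptor that binds amphiregulin, had 0.216, 0.607 and 0.201 CPM in ST2-low and 3.17, 2.49 and 2.44 CPM in ST2-high (7.98-fold, adjusted p = 8.19e-07 by edgeR). Because of that choice, the separation of the groups in these 3 genes is a description. In the ST2-low libraries 1 count equals 0.0503 to 0.0552 CPM, so the ST2-low levels rest on few reads and the folds are uncertain.

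Clustered histone genes, whose transcripts accumulate during replication, were 36 higher and 0 lower of 57 tested (edgeR; 1 at an unadjusted p under 0.05, 0 by DESeq2 and 0 by limma-voom; 1 without ST2-low replicate 3 or ST2-high replicate 2), with a median log2 fold change of 0.56. The shares over all tested genes were 15.3% higher and 10.8% lower. The histone group was chosen after its values were seen, and near-identical copies make the values of single members uncertain. Their transcripts mostly lack a poly(A) tail, and the labels used here do not say whether that tail was selected. The short non-coding RNAs Rmrp and Rpph1, catalytic RNAs of ribonucleases, varied widely within ST2-high: Rmrp had 434, 634 and 540.2 CPM in ST2-low and 127, 231 and 423 CPM in ST2-high (adjusted p = 0.15 by edgeR) and Rpph1 864, 863 and 671 CPM in ST2-low and 304, 409 and 528 CPM in ST2-high (adjusted p = 0.0781), neither of them called.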
